A study of Homo sapiens and Mus musculus with 99 samples.

Results

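The genes described are the zinc finger genes of human chromosome 19, read in 2 lung epithelial cell lines. A gene row belonged to the list if its first chromosome entry was chromosome 19, its symbol was ZNF followed by a number and at most 1 letter, and it held at least 10 counts in at least 2 libraries of an experiment. Of 57820 human gene rows, 261 matched by name and chromosome. The count minimum left 211, the members of the list, and dropped 50. By their second-highest count, ZNF43 (10 counts) and ZNF233, ZNF382 and ZNF793 (13 each) lay just inside the minimum, and ZNF564 and ZNF56P (9 each) lay just outside. Of the 211 members, 208 were annotated as protein-coding and 3 as pseudogenes (ZNF887P, ZNF137P and ZNF702P). A total of 170 members passed the minimum in every one of the 6 experiments. On the hg19 coordinates of the deposited tables, joining neighbouring members whose starts lay at most 500 kb apart gave 21 positional groups.

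Most C2H2 zinc finger genes of human chromosome 19 lie in clusters that arose by tandem duplication in primates and earlier mammals. Many encode a KRAB domain in front of an array of zinc fingers. The fingers read DNA, often within transposable elements, and the KRAB domain recruits TRIM28, a corepressor that brings histone methylation and silencing to the bound site. Their transcripts are usually scarce, and their roles in airway epithelium are largely unknown.

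RNA was sequenced from NCI-H1437 and NCI-H292, established lines of epithelial cells from lung cancers of the non-small cell type, 4 h after treatment. ALT is an extract of the mould Alternaria alternata. WT ALT is extract of the wild-type fungus, and the extracts aegs KO ALT and aegl KO ALT are labelled as knockouts of the gene for one or the other of its pore-forming proteins, Aeg-S and Aeg-L. The 2 proteins given together are called Aeg-S/L. Every experiment had its own mock group, treated with the saline DPBS. Experiment H1437-1 compared ALT, ALT given with an agent the labels call Tra (ALT+Tra), whose compound they do not spell out and which the name of the count table gives as a MEK inhibitor, and DPBS. Experiment H1437-2 compared Aeg-S/L, Aeg-S/L+Tra, Aeg-S, Aeg-L and DPBS. Experiments H1437-3 and H292-2 compared Aeg-S/L, Aeg-S/L with BAPTA-AM (a chelator of intracellular calcium), Aeg-S/L with EGTA (a chelator of extracellular calcium) and DPBS. Experiments H1437-4 and H292-1 compared WT ALT, aegs KO ALT, aegl KO ALT and DPBS. By the labels, inhibitor and chelators were always given with a stimulus, although the BAPTA-AM columns of the H292-2 table name the chelator alone. Each line is a single tumour-derived line.

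There were 51 libraries in 24 groups, 35 from NCI-H1437 and 16 from NCI-H292. Groups held 3 libraries in H1437-1 and 2 elsewhere. Libraries held 32.4 to 53.2 M counted fragments. The series describes its replicates as biological, but no source used here says that they came from separate cultures, so p-values measure only the spread between these libraries. All 6 epithelial markers looked for (EPCAM, CDH1, KRT7, KRT8, KRT18 and KRT19) were present, with a summed level of 4190 to 5390 CPM (counts scaled to the size of the library) in NCI-H292 and 3510 to 5840 CPM in NCI-H1437. The 4 leukocyte markers summed to at most 0.237 CPM in NCI-H292 and 0.268 CPM in NCI-H1437. Endothelial markers (2 of 3 names matched) summed to 52.7 to 76.4 CPM in NCI-H292 and 2.27 to 9.06 CPM in NCI-H1437, and fibroblast markers to 19.2 to 51.8 CPM in NCI-H292 and 54.3 to 218 CPM in NCI-H1437, with COL1A2, DCN and PDGFRA under 1 CPM. In bulk RNA, fewer cells expressing a gene and less RNA per cell cannot be told apart.

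Summed over members, the level was 1716 to 2245 CPM in NCI-H292 libraries and 708 to 1065 in NCI-H1437 libraries. In H292-2 the sum was 1716 and 1746 CPM in the Aeg-S/L libraries, against 2068 and 2089 in the DPBS libraries. In H1437-4 it was 825.1 and 806.1 CPM with WT ALT, against 964.6 and 984.0 with DPBS. Both stimulus libraries lay below both mock libraries in these 2 experiments, and likewise in H1437-2 and H1437-3. These sums are scaled by library totals. With the TMM scaling of the tests below (trimmed mean of M-values), the sums were 1865 and 1891 CPM with Aeg-S/L against 1997 and 2028 with DPBS in H292-2, and the order held in these 4 experiments. In H292-1 the WT ALT libraries, at 1920 and 1958 CPM, lay below DPBS at 2113 and 1969 with library totals, but the groups overlapped with TMM scaling (2038 and 2079 with WT ALT, 2057 and 1951 with DPBS). In H1437-1 the ALT libraries, at 805.7, 823.5 and 809.7 CPM, lay within the DPBS libraries at 708.4, 871.1 and 933.1. DPBS replicate 1 of H1437-1 stood apart from the other mock libraries there.

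**Figure D1:**
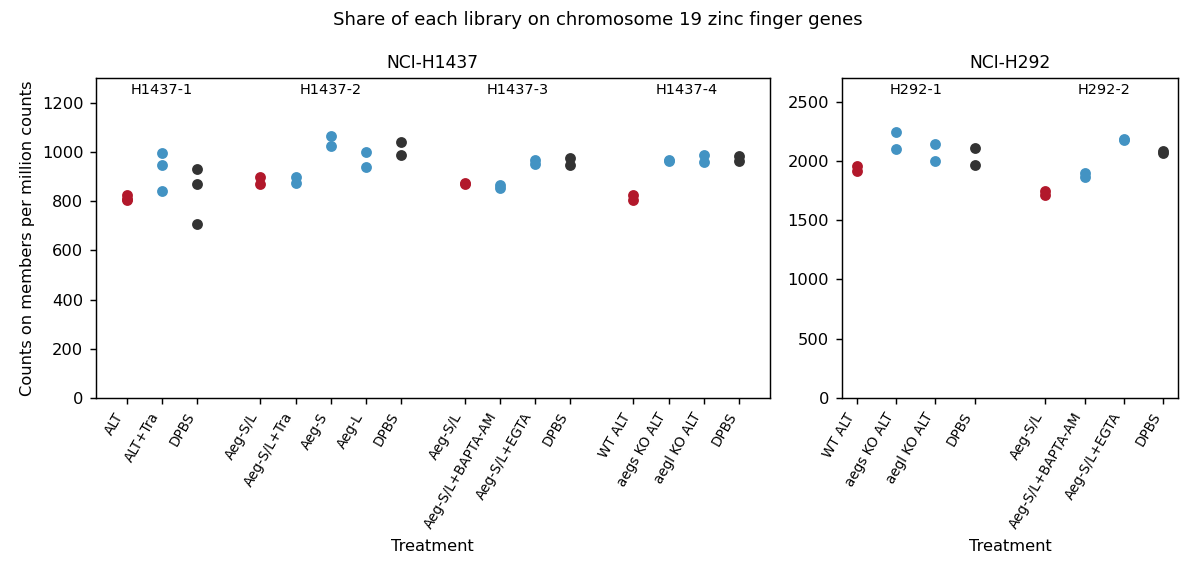
Counts on chromosome 19 zinc finger genes in CPM scaled by library totals (vertical axis), 1 point per library, by group and experiment. NCI-H292 libraries sit between 1716 and 2245 CPM, all above the NCI-H1437 libraries at 708 to 1065, and the Aeg-S/L libraries of H292-2 are the lowest of that line.

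Members recurred among the called genes in both directions, and 4 of them are shown with their promoters because the results below return to them. ZNF460 and ZNF121 were higher and ZNF627 and ZNF616 lower in at least 5 of the 6 comparisons of a stimulus with DPBS. ZNF146, ZNF525 and ZNF566 were lower in 5 as well, and their windows are not shown. Each sequence is the 250 bases before the start of the gene as RefSeq gives it on GRCh38.p14, read 5′ to 3′ on the gene's strand, at chr19:57279732-57279981 (plus) for ZNF460, chr19:9584505-9584754 (minus) for ZNF121, chr19:11597233-11597482 (plus) for ZNF627 and chr19:52139939-52140188 (minus) for ZNF616. Capitals mark the motifs searched.
ZNF460: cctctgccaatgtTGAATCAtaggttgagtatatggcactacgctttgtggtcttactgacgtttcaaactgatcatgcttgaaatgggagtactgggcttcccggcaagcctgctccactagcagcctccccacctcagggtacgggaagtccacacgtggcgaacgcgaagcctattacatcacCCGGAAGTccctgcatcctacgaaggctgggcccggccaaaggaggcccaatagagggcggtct
ZNF121: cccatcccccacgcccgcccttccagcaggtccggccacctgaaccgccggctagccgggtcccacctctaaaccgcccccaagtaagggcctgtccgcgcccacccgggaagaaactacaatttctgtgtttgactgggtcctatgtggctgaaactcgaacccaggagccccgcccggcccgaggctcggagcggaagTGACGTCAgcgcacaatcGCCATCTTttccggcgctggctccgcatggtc
ZNF627: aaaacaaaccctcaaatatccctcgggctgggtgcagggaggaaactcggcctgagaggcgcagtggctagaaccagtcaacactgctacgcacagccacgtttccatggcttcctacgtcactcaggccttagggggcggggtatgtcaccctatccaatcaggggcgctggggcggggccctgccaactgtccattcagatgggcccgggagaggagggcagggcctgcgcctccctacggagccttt
ZNF616: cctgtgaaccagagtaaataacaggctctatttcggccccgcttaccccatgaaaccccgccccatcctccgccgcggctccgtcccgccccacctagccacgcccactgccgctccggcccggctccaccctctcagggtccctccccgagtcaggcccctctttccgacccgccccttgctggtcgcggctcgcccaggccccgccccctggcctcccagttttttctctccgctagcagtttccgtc

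The motifs were searched on both strands of these windows: TGACGTCA (CRE, bound by CREB), TGANTCA (AP-1), CCGGAAGT (ETS), AAGATGGC (YY1), GCGNGGGCG (EGR) and the palindromic NRF1 motif, none of which holds another. The ZNF460 window held an AP-1 match that began 237 bases before the start and an ETS match 64 bases before it. The ZNF121 window held a CRE match at 50 bases and a YY1 match on the other strand at 32 bases before the start. The windows of ZNF627 and ZNF616 held none of them, which says only that these letters are not in these windows. The 4 windows do not stand for all higher or lower members. Of 23 windows of members lower in at least 3 comparisons, ETS letters were in 3 and AP-1, YY1 and EGR in 1 each. Of 10 windows of members higher in at least 3, ETS letters were in 5, AP-1 in 2 and CRE, YY1 and EGR in 1 each. These sets were not tested against each other. RefSeq promoters were found for 186 members. The ETS letters were in 30 of these (16.1%), against 3.42% of all 35116 promoters in the table. CRE letters were in 2.69% of members' and 1.65% of all promoters, AP-1 in 5.38% and 6.57%, YY1 in 4.3% and 1.36%, NRF1 in 1.08% and 1.03%, and EGR in 5.91% and 8.41%. Members' windows had a median of 16 CpG dinucleotides and 59.6% GC, against 11 and 58.0% in all promoters. A match is a description of the letters and not a bound site.

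Each stimulus was set against DPBS in a fit of all genes of the experiment with edgeR's quasi-likelihood test, and genes with an adjusted p under 0.05 count as called, with p adjusted by Benjamini-Hochberg over all genes tested. Changes are log2 fold changes of stimulus over DPBS. In H292-2, 25 of 203 tested members (12.3%) were higher with Aeg-S/L and 92 (45.3%) lower, against 22.1% higher and 21.1% lower among all 16380 genes tested. The members' median change was -0.46, that of all genes -0.005, that of zinc finger genes on other chromosomes -0.27 and that of other protein-coding genes of chromosome 19 0.14. In H292-1, 22 of 206 members (10.7%) were higher with WT ALT and 42 (20.4%) lower, against 11.6% and 11.3% of all genes, with a median of -0.28 for members and -0.015 for all genes. Lower calls among members were thus more frequent than among all genes in both NCI-H292 experiments, while higher calls were not. Zinc finger genes on other chromosomes also had a negative median in H292-2 (-0.27). Their shares of calls are not given here, so the result is not shown to be particular to chromosome 19. Leaving out 1 library at a time gave 91 to 98 called members in H292-2, whereas in H292-1 the 64 fell to 30 without DPBS replicate 1, 29 without WT ALT replicate 1 and 35 without WT ALT replicate 2.

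Mitochondrial counts made up 1.02% and 0.986% with WT ALT against 2.79% and 2.51% with DPBS in H292-1, and 2.05% and 1.82% with Aeg-S/L against 2.09% and 2.41% with DPBS in H292-2. Of the 6 epithelial markers, KRT18 and KRT8 were higher in both, with KRT7 higher and CDH1 lower in H292-2, and of the endothelial markers CDH5 was higher in H292-2. The part of these in the result was not tested.

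In H1437-4, 5 of 181 members (2.76%) were higher with WT ALT and 36 (19.9%) lower, against 15.8% and 17.1% of all genes. The members' median was -0.33, against -0.008 for all genes, -0.26 for zinc finger genes elsewhere and 0.16 for other coding genes of chromosome 19. The count of 41 fell to 26 without DPBS replicate 2. In H1437-3, 19 of 179 members (10.6%) were higher with Aeg-S/L and 21 (11.7%) lower, both below the 15.4% and 15.8% of all genes, and the members' median was -0.10 against 0.012 for all genes. The 40 calls of H1437-3 fell to 22 without Aeg-S/L replicate 1, 21 without Aeg-S/L replicate 2, 26 without DPBS replicate 1 and 20 without DPBS replicate 2.

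Fewer genes of any kind were called in the other experiments with NCI-H1437. In H1437-2, 2 of 183 members (1.09%) were higher with Aeg-S/L and 7 (3.83%) lower, against 3.63% and 3.1% of all genes. The members' median there was -0.36, that of all genes 0.011 and that of zinc finger genes elsewhere -0.21. In H1437-1, 1 of 168 members (0.595%) was higher with ALT and 3 (1.79%) lower, against 3.59% and 1.13% of all genes, with medians of -0.11 for members and -0.028 for all genes. The 9 calls of H1437-2 became 0 to 5 without any 1 of its 4 stimulus and mock libraries, and the 4 calls of H1437-1 became 0 to 8 without any 1 of its 6, with 8 without DPBS replicate 1. In the experiments with NCI-H1437, COL1A1 was called higher with the stimulus in all 4, CDH5 in H1437-2, H1437-3 and H1437-4, and 4 of 6 epithelial markers (the keratins) in H1437-3 and H1437-4, with CDH1 lower in both and VWF lower in H1437-3. The part of these in the result was not tested. Scaled by library totals in place of TMM factors, the 40 calls of H1437-3, of which 52.5% were lower, became 7 higher and 26 lower (78.8% lower), against 10.5% and 22.5% of all genes. That scaling moved the median of all genes to between -0.17 in H292-2 and -0.09 in 3 experiments with NCI-H1437, and the members' medians to between -0.62 and -0.18, below that of all genes in each. The plot of set medians shows the 6 comparisons beside each other.

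**Figure D2:**
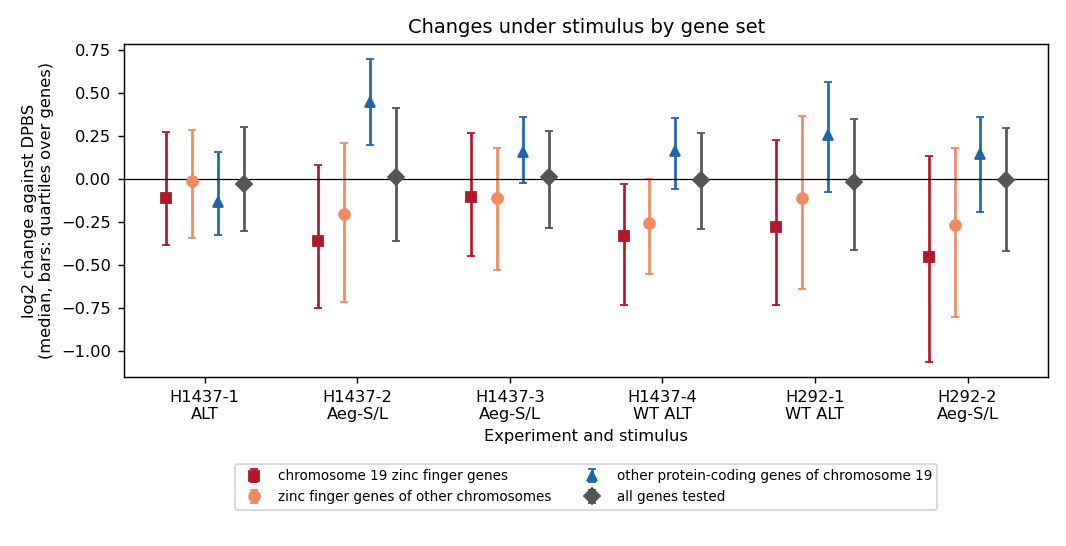
Median log2 change against DPBS (point) with quartiles (bar) for chromosome 19 zinc finger genes, zinc finger genes of other chromosomes, other protein-coding genes of chromosome 19 and all genes tested, in each of the 6 comparisons of a stimulus with DPBS. The members' median lies below that of all genes in all 6, from -0.46 in H292-2 to -0.10 in H1437-3.

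Of 210 members tested in at least 1 of the 6 comparisons, 68 (32.4%) were called in none, 109 (51.9%) were lower in at least 1 and 36 (17.1%) higher in at least 1, with 3 called both ways. Among all 19308 genes tested in at least 1, these shares were 45.9%, 28.4% and 28.2%. Lower in at least 3 comparisons were 24 members (11.4%), against 8.82% of all genes, and higher in at least 3 were 11 (5.24%), against 9.17%. ZNF627 was lower in all 6, and ZNF146, ZNF525, ZNF566 and ZNF616 in 5. ZNF460 and ZNF121 were higher in 5, and ZNF317 and ZNF787 in 4. Each experiment had its own DPBS libraries.

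ZNF460 (ENSG00000197714.4, hg19 chr19:57791419-57804937, plus strand) encodes a KRAB zinc finger protein. In H292-2 it stood at 11.5 and 12 CPM with Aeg-S/L, against 2.41 and 3.01 CPM with DPBS. In H292-1 it stood at 15.4 and 15.6 CPM with WT ALT, against 3.80 and 2.31 CPM with DPBS. The groups did not overlap in either experiment, and the log2 changes were 2.11 ± 0.19 (SE, adjusted p = 3.77e-08) and 2.33 ± 0.29 (adjusted p = 0.000389). In NCI-H1437 its levels were 4.23 and 4.05 CPM with WT ALT against 1.48 and 1.32 CPM with DPBS in H1437-4, a change of 1.56 ± 0.32 (adjusted p = 0.0012). With Aeg-S/L they were 4.30 and 3.60 CPM against 1.24 and 1.82 CPM with DPBS in H1437-3 (1.37 ± 0.37, adjusted p = 0.00929). In H1437-2 they were 3.95 and 3.14 CPM with Aeg-S/L against 1.05 and 0.546 CPM with DPBS (2.15 ± 0.40, adjusted p = 0.00746). All stimulus libraries exceeded all mock libraries in these 5 experiments, as they did in H1437-1. In H1437-1 the ALT libraries had 1.48, 2.41 and 2.94 CPM and the DPBS libraries 0.199, 1.06 and 1.11 CPM, and the change of 1.51 ± 0.51 was not called (adjusted p = 0.14). The call was lost, with adjusted p up to 0.125, in H1437-2 without Aeg-S/L replicate 1 or DPBS replicate 2, and, with adjusted p up to 0.0688, in H1437-3 without Aeg-S/L replicate 1 or DPBS replicate 1. ZNF460 shared no exon base with another gene.

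ZNF627 (ENSG00000198551.5, chr19:11670189-11729950, plus strand), another KRAB zinc finger gene, moved the other way. In H292-2 it stood at 3.05 and 3.73 CPM with Aeg-S/L, against 9.77 and 11.1 CPM with DPBS (-1.62 ± 0.16, adjusted p = 1.45e-07). In H292-1 it stood at 4.31 and 4.78 CPM with WT ALT, against 11.0 and 10.4 CPM with DPBS (-1.23 ± 0.19, adjusted p = 0.0015). The groups did not overlap in either experiment, nor in any of the 4 with NCI-H1437. There it stood at 2.55 and 2.50 CPM with Aeg-S/L against 5.12 and 4.74 CPM with DPBS in H1437-3 (-0.96 ± 0.20, adjusted p = 0.00155), and at 2.73 and 3.61 CPM with WT ALT against 5.80 and 6.18 CPM with DPBS in H1437-4 (-0.92 ± 0.20, adjusted p = 0.002). In H1437-2 it stood at 2.23 and 2.25 CPM with Aeg-S/L against 5.29 and 6.50 CPM with DPBS (-1.39 ± 0.34, adjusted p = 0.0311), a call lost without any 1 of these 4 libraries (adjusted p up to 0.233). In H1437-1 the ALT libraries had 2.82, 1.65 and 2.30 CPM and the DPBS libraries 3.86, 6.00 and 5.04 CPM (-1.14 ± 0.27, adjusted p = 0.0382). That call was lost without any ALT library, without DPBS replicate 2 or 3, and with replicate numbers as a block (adjusted p up to 0.19).

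**Figure D3:**
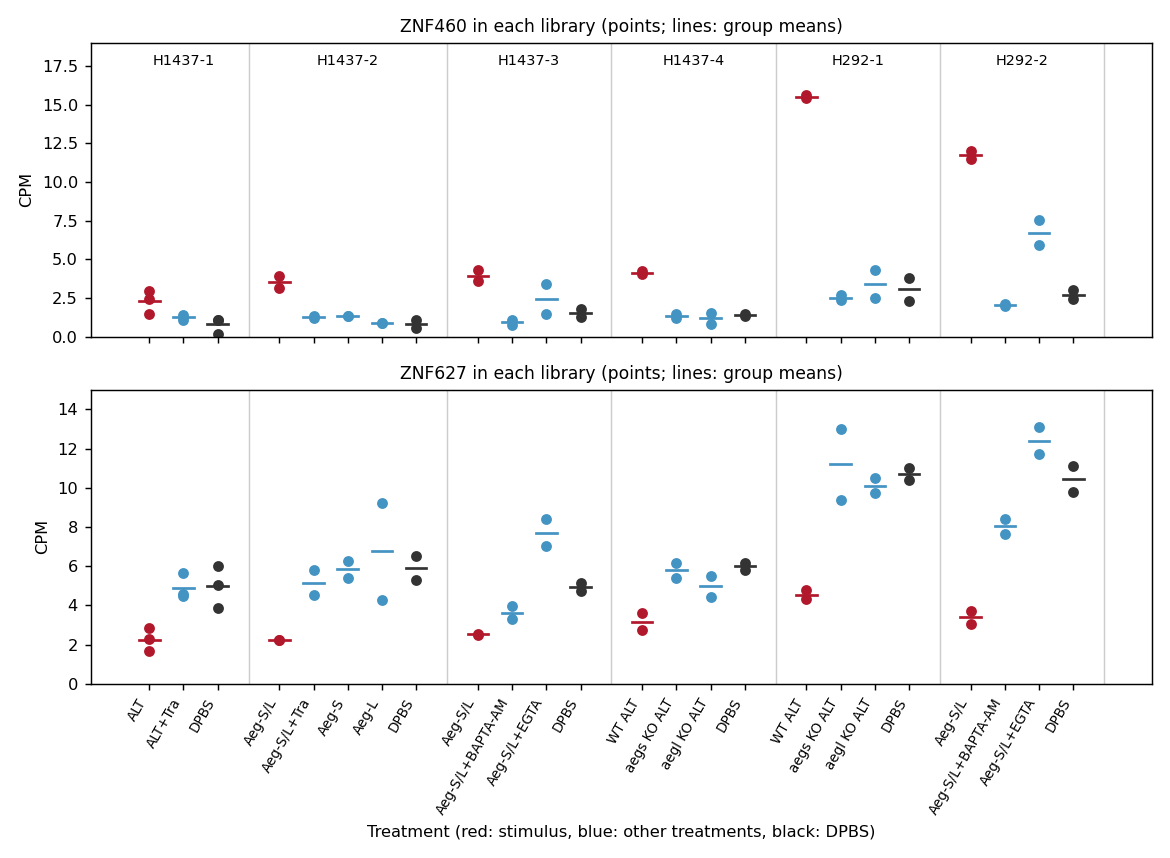
Level of ZNF460 and ZNF627 in CPM (vertical axis) in each library (point) by experiment and group, with a line at the group mean; stimuli are red, other treatments blue and DPBS black. ZNF460 reaches 11.5 to 15.6 CPM in the stimulated NCI-H292 libraries against 2.31 to 3.80 CPM with DPBS, and ZNF627 has 3.05 to 4.78 CPM against 9.77 to 11.1 CPM with DPBS.

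ZNF121 (ENSG00000197961.7, chr19:9671029-9695209, minus strand), a C2H2 gene with higher levels, was the other member called higher in 5 comparisons. It stood at 35.9 and 39.4 CPM with Aeg-S/L against 23.0 and 26.9 CPM with DPBS in H292-2 (0.59 ± 0.10, adjusted p = 6.38e-05). In H1437-4 it stood at 30.0 and 23.0 CPM with WT ALT against 14.6 and 18.6 CPM with DPBS (0.68 ± 0.14, adjusted p = 0.00141). Both stimulus libraries lay above both mock libraries each time. The changes in H292-1 (0.79), H1437-3 (0.35) and H1437-1 (1.13) were called too, but each was lost without 1 library: DPBS replicate 1 in H292-1 (adjusted p = 0.0614), Aeg-S/L replicate 2 or DPBS replicate 2 in H1437-3 (adjusted p up to 0.184), and ALT replicate 2, ALT replicate 3 or DPBS replicate 2 in H1437-1 (adjusted p up to 0.0898). In H1437-2 it stood at 20.1 and 23.1 CPM with Aeg-S/L and 20.3 and 21.7 CPM with DPBS, and the groups overlapped.

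ZNF146 (ENSG00000167635.7, chr19:36705504-36729676, plus strand), which encodes fingers without a KRAB domain, was the member with the highest level in mock-treated cells. In H1437-3 it stood at 74.3 and 70.4 CPM with Aeg-S/L against 96.2 and 99.5 CPM with DPBS (-0.44 ± 0.07, adjusted p = 0.000182). In H292-2 it stood at 65.9 and 66.9 CPM with Aeg-S/L against 85.2 and 84.0 CPM with DPBS (-0.35 ± 0.08, adjusted p = 0.00115). Stimulus and mock libraries did not overlap, and the same held in H1437-4 (-0.48 ± 0.08, adjusted p = 0.000179). The calls of ZNF146 with WT ALT in H292-1 (-0.54, adjusted p = 0.0353) and with Aeg-S/L in H1437-2 (-0.83, adjusted p = 0.0433) were lost without any 1 of their 4 libraries (adjusted p up to 0.226 and 0.313). In H1437-1 it was not called. ZNF146 shared 10.8% of its exon bases with ZNF565 on the opposite strand, and without strand in the library preparation the reads of such genes cannot be told apart.

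ZNF525, ZNF616 and ZNF566 encode KRAB zinc finger proteins and were lower in every comparison except that of H1437-1. ZNF525 (chr19:53868946-53895470, plus strand) stood at 10.9 and 8.19 CPM with Aeg-S/L against 19.6 and 20.0 CPM with DPBS in H292-2 (-1.05 ± 0.13, adjusted p = 2.62e-06). ZNF616 (chr19:52616344-52643175, minus strand) stood at 4.59 and 3.37 CPM with Aeg-S/L against 13.0 and 8.46 CPM with DPBS in H292-2 (-1.43 ± 0.24, adjusted p = 7.09e-05). ZNF566 (chr19:36936021-36980804, minus strand) stood at 2.43 and 1.85 CPM with WT ALT against 4.88 and 5.11 CPM with DPBS in H1437-4 (-1.22 ± 0.21, adjusted p = 0.000285). All 3 showed no overlap between stimulus and mock libraries in these experiments. ZNF525 kept its calls in H1437-4 (-1.21) and H292-1 (-0.83) without any 1 library, but lost those in H1437-2 without Aeg-S/L replicate 1 or 2 or DPBS replicate 2 (adjusted p up to 0.14) and in H1437-3 without Aeg-S/L replicate 2 or DPBS replicate 2 (adjusted p up to 0.292). For ZNF616 the call of H292-2 was kept. Those of H1437-2 (-1.27, Aeg-S/L replicate 1 or either DPBS library), H1437-3 (-0.88, Aeg-S/L replicate 2 or DPBS replicate 2), H1437-4 (-1.17, DPBS replicate 2) and H292-1 (-0.87, DPBS replicate 1 or either WT ALT library) were lost without the libraries named, with adjusted p up to 0.341. For ZNF566 the call of H1437-4 was kept. Those of H1437-2 (-1.88, either Aeg-S/L library or DPBS replicate 2), H1437-3 (-0.84, Aeg-S/L replicate 2), H292-1 (-0.89, DPBS replicate 1 or either WT ALT library) and H292-2 (-0.66, Aeg-S/L replicate 1 or DPBS replicate 2) were lost without the libraries named, with adjusted p up to 0.151.

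ZNF317, a KRAB zinc finger gene, and ZNF787 were higher in 4 comparisons and have high levels for members. ZNF317 stood at 90.1 and 90.6 CPM with Aeg-S/L against 58.5 and 58.4 CPM with DPBS in H292-2 (0.63 ± 0.07, adjusted p = 1.19e-06). In H1437-3 it stood at 44.9 and 51.5 CPM with Aeg-S/L against 27.6 and 28.3 CPM with DPBS (0.79 ± 0.09, adjusted p = 4.88e-06). ZNF787 stood at 120 and 119 CPM with Aeg-S/L against 68.0 and 67.2 CPM with DPBS in H292-2 (0.82 ± 0.06, adjusted p = 2.9e-09). In each of these the 2 stimulus libraries lay well apart from the 2 mock libraries. The further calls were lost without single libraries. For ZNF317 these were H1437-2 (0.86, any of 4 libraries, adjusted p up to 0.187) and H1437-4 (0.33, DPBS replicate 2, adjusted p = 0.0953). For ZNF787 they were H292-1 (0.91, DPBS replicate 1 or either WT ALT library, adjusted p up to 0.139), H1437-4 (0.34, DPBS replicate 2, adjusted p = 0.115) and H1437-3 (0.26, Aeg-S/L replicate 2 or DPBS replicate 2, adjusted p up to 0.257).

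Other members had large changes in 1 or both NCI-H292 experiments. ZNF331, a KRAB zinc finger gene known to be imprinted, stood at 48.0 and 45.0 CPM with Aeg-S/L against 14.7 and 15.3 CPM with DPBS in H292-2 (1.63 ± 0.12, adjusted p = 8.66e-10). In H292-1 it stood at 17.5 and 18.5 CPM with WT ALT against 13.9 and 13.6 CPM with DPBS, and the change of 0.38 ± 0.15 was not called (adjusted p = 0.0931). ZNF57, a KRAB zinc finger gene distinct from the imprinting regulator ZFP57, stood at 14.1 and 13.5 CPM with Aeg-S/L against 3.78 and 3.21 CPM with DPBS in H292-2 (1.98 ± 0.19, adjusted p = 6.18e-08). For both genes the Aeg-S/L libraries of H292-2 lay above the mock libraries without overlap. ZNF57 was called in H292-1 as well, at 9.65 and 8.21 CPM with WT ALT against 4.12 and 3.67 CPM with DPBS (1.2 ± 0.27, adjusted p = 0.00988), a call lost without DPBS replicate 1 or 2 or WT ALT replicate 1 (adjusted p up to 0.0831). It shared 13.6% of its exon bases with an antisense gene.

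ZNF681, a KRAB zinc finger gene at chr19:23921997-23941693 on the minus strand, was among the members that fell most. It stood at 0.321 and 0.355 CPM with Aeg-S/L against 3.51 and 3.43 CPM with DPBS in H292-2 (-3.35 ± 0.37, adjusted p = 4.69e-07), and at 0.844 and 0.657 CPM with WT ALT against 3.45 and 2.88 CPM with DPBS in H292-1 (-2.07 ± 0.31, adjusted p = 0.00111). In H1437-4 it stood at 0.390 and 0.251 CPM with WT ALT against 1.48 and 1.30 CPM with DPBS (-2.10, adjusted p = 0.00162). No stimulus library reached the level of a mock library. The call in H1437-2 (-2.98, adjusted p = 0.0033) was lost without Aeg-S/L replicate 1 (adjusted p = 0.0578), and the change in H1437-3 (-0.80) was not called. ZNF439, also with a KRAB domain, had 0 and 2 counts with Aeg-S/L against 26 and 28 counts with DPBS in H292-2 (adjusted p = 0.000596), while in H292-1 its 0.392 and 0.358 CPM with WT ALT overlapped the 0.359 and 0.300 CPM with DPBS. The pseudogene ZNF137P stood at 0.449 and 0.148 CPM with Aeg-S/L against 1.52 and 2.37 CPM with DPBS in H292-2 (-2.71, adjusted p = 0.00015) and was lower with WT ALT in H292-1 (-1.81, adjusted p = 0.00342).

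ZNF823 and ZNF780A, both with KRAB domains, were lower in 4 comparisons each. ZNF823 stood at 2.05 and 2.25 CPM with Aeg-S/L against 6.97 and 7.26 CPM with DPBS in H292-2 (-1.72 ± 0.22, adjusted p = 3.81e-06). ZNF780A stood at 4.33 and 4.32 CPM with Aeg-S/L against 10.4 and 12.7 CPM with DPBS in H1437-3 (-1.42 ± 0.16, adjusted p = 5.53e-06). In both, the stimulus libraries lay below the mock libraries without overlap. The further call of ZNF823 in H1437-1 (-1.09, adjusted p = 0.0332) was lost without any ALT library or DPBS replicate 2 or 3 (adjusted p up to 0.162), and that of ZNF780A in H1437-2 (-1.52, adjusted p = 0.00376) without Aeg-S/L replicate 1 (adjusted p = 0.0547). Among members that were higher, ZNF805 (KRAB) stood at 9.30 and 9.4 CPM with Aeg-S/L against 4.65 and 3.21 CPM with DPBS in H292-2 (1.25, adjusted p = 5.46e-05). ZNF256 (KRAB) stood at 13.1 and 13.4 CPM with WT ALT against 7.03 and 5.83 CPM with DPBS in H292-1 (1.04, adjusted p = 0.00479) and at 10.1 and 8.78 CPM with Aeg-S/L against 4.77 and 5.83 CPM with DPBS in H292-2 (0.83, adjusted p = 0.000287). These groups did not overlap. ZNF805 was also called in H292-1 (1.18) and H1437-3 (1.26), calls lost without WT ALT replicate 1 (adjusted p = 0.0656) and DPBS replicate 2 (adjusted p = 0.0786). ZNF296, whose mouse counterpart takes part in reprogramming, stood at 13.5 and 14.1 CPM with WT ALT against 4.07 and 4.63 CPM with DPBS in H292-1 (1.67 ± 0.39, adjusted p = 0.0115), and ZNF850 at 7.24 and 5.14 CPM with WT ALT against 2.2 and 2.76 CPM with DPBS (1.32, adjusted p = 0.00708). Both calls were lost without DPBS replicate 1 and 1 WT ALT library, replicate 2 for ZNF296 (adjusted p up to 0.0933) and replicate 1 for ZNF850 (adjusted p up to 0.0808).

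ZNF606, ZNF585A and ZNF569, each with a KRAB domain, were also among the larger decreases. ZNF606 stood at 0.737 and 1.18 CPM with Aeg-S/L against 6.58 and 6.50 CPM with DPBS in H292-2 (-2.76 ± 0.29, adjusted p = 2.5e-07). ZNF585A stood at 0.930 and 0.798 CPM with Aeg-S/L against 2.71 and 3.68 CPM with DPBS in H292-2 (-1.89 ± 0.33, adjusted p = 0.000128). ZNF569 stood at 0.150 and 0.126 CPM with WT ALT against 0.918 and 0.798 CPM with DPBS in H1437-4 (-2.61 ± 0.65, adjusted p = 0.00504), and was not called in the other 5 comparisons. In each the groups did not overlap. Several other large changes in NCI-H1437 rested on few counts or on single libraries. ZNF606 in H1437-3 (-1.74, adjusted p = 0.0392) was lost without Aeg-S/L replicate 1 or either DPBS library (adjusted p up to 0.265), and ZNF585A in H1437-4 (-3.12, adjusted p = 0.0353) without either DPBS library or WT ALT replicate 2 (adjusted p up to 0.195). ZNF837 in H1437-3 (-1.58, adjusted p = 0.00978) was lost without Aeg-S/L replicate 1 or DPBS replicate 1 (adjusted p up to 0.109). ZNF414 in H1437-1 (-1.14, adjusted p = 0.0426), ZNF699 in H1437-3 (1.40, adjusted p = 0.0494) and ZNF358 in H1437-4 (0.46, adjusted p = 0.0498) were near the threshold. ZNF414 lost its call without any ALT library or DPBS replicate 1 or 3 (adjusted p up to 0.183), and ZNF699 and ZNF358 lost theirs without any 1 of their 4 libraries (adjusted p up to 0.204 and 0.208).

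Positional groups differed in their changes. The 13 members from ZNF737 to ZNF43 (chr19:20718631-22034927, 1.32 Mb) lie in a primate-expanded cluster near the centromere. With WT ALT in H292-1, 9 of its 12 tested members were lower and 0 higher, with a median log2 change of -1.85 and all 12 fitted changes below 0. With Aeg-S/L in H292-2, 7 of 10 were lower and 0 higher, with a median of -0.98 and all 10 below 0. In NCI-H1437 the medians were -0.43 in H1437-4 (1 of 7 lower), -0.44 in H1437-3 (2 of 7 lower), -0.62 in H1437-2 (0 of 7 called) and 0.23 in H1437-1 (0 of 6 called). Lower calls made up 11.3% of all genes in H292-1, 21.1% in H292-2, 17.1% in H1437-4, 15.8% in H1437-3, 3.1% in H1437-2 and 1.13% in H1437-1. ZNF100 changed by -2.05 ± 0.26 with WT ALT in H292-1 (adjusted p = 0.000394) and -1.80 ± 0.29 with Aeg-S/L in H292-2 (adjusted p = 4.53e-05). ZNF708 changed by -2.59 (adjusted p = 0.00159) and -2.22 (adjusted p = 0.00141), the second lost without DPBS replicate 2 (adjusted p = 0.0617). ZNF493 changed by -3.82 (adjusted p = 0.0138) and -3.14 (adjusted p = 0.0037), the first lost without DPBS replicate 1 or WT ALT replicate 2 (adjusted p up to 0.107). ZNF626 (-1.66 and -1.39) and ZNF431 (-1.01 and -0.54) were called lower in both experiments as well. ZNF737 had 0 counts with WT ALT against 22 with DPBS in H292-1, at least 6.51-fold lower against a floor of 3 counts over the group. ZNF737 and ZNF429 (-3.85) passed the count minimum in H292-1 only. ZNF737 passed it through libraries other than those of WT ALT, so its lower call follows in part from the minimum. Both are among the 9 lower members and enter the median of -1.85. ZNF738 was called in neither (-0.61 and -0.58). Members of this group shared a median of 2.9% of their 50-base words with other genes, and all 211 members a median of 1.6%.

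The neighbouring group ZNF724 to ZNF254, which holds ZNF681, had 5 of 5 tested members lower in H292-2 (median -1.66), 4 of 5 lower in H292-1 (-1.30) and 4 of 6 lower in H1437-4 (-0.84). In H1437-2, 1 of its 6 was lower (-1.19), and in H1437-3 and H1437-1 0 were called (-0.53 and -0.45). In the group ZNF302 to ZNF792, 5 of 5 were lower in H292-2 (-1.28), where 21.1% of all genes were, 2 of 5 in H292-1 (-0.38) and in H1437-4 (-0.56), 1 of 5 in H1437-3 (-0.39), and 0 in H1437-2 (-0.65) and H1437-1 (-0.64). The group ZNF546 to ZNF780A had 2 of 3 lower in H292-2 (-1.08) and 1 of 3 lower in H1437-4 (-1.17). ZNF114, which stands alone, changed by -2.89 in H292-2 and -2.38 in H292-1 and was called lower in both. In the group ZNF264 to ZNF446 (41 members, chr19:57702868-58992597), which holds ZNF460, ZNF256 and ZNF805, 12 of 40 members were higher and 12 lower in H292-2 (median 0.06), and 10 of 41 were higher and 2 lower in H292-1 (0.22). In the group ZNF175 to ZNF331 (34 members, chr19:52074551-54083523), 3 of 32 were higher and 19 lower in H292-2 (-0.60), and 2 of 32 were higher and 10 lower in H292-1 (-0.38). In the group ZNF628 to ZNF71, 1 of 11 was higher and 2 lower in H292-2 (0.02), and 3 were higher and 0 lower in H292-1 (0.55). Among all genes, 22.1% were higher and 21.1% lower in H292-2, and 11.6% and 11.3% in H292-1. Lower in NCI-H1437 were 17.1% of all genes in H1437-4, 15.8% in H1437-3, 3.1% in H1437-2 and 1.13% in H1437-1. Members of a group are neighbours that arose by duplication and are not independent of each other, and the groups were not tested against each other.

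**Figure D4:**
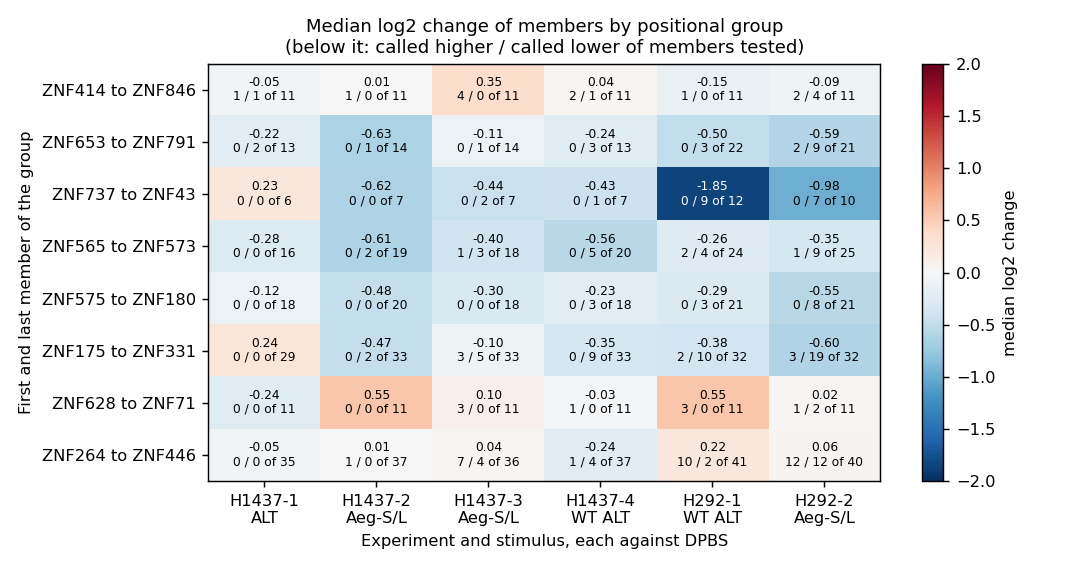
Median log2 change against DPBS (colour and number) of each positional group with at least 10 members (rows, in chromosome order) in each comparison of a stimulus with DPBS (columns), with the numbers called higher and lower of those tested. The group ZNF737 to ZNF43 has the lowest medians of these groups in the NCI-H292 experiments, -1.85 in H292-1 and -0.98 in H292-2. The value for H292-1 includes ZNF737 and ZNF429, which passed the count minimum in that experiment only.

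Extracts of the knockouts, aegs KO ALT and aegl KO ALT, were set against DPBS to ask what remains of the response when one of the proteins is missing. In these comparisons 0 members were called. In H1437-4, 0 of 181 were called with aegs KO ALT (1.08% of all genes) and 0 with aegl KO ALT (0.766%), with 5 and 8 members at an unadjusted p under 0.05. In H292-1, 0 of 206 were called with aegs KO ALT (0% of all genes) and 0 with aegl KO ALT (0.12%), with 1 and 21 members at an unadjusted p under 0.05. DESeq2 also called 0 in these 4, and without the filter on low counts 1 member was called with aegl KO ALT in H1437-4 and 5 in H292-1. In H1437-2 the single proteins gave 0 calls of 183 each, and no gene of any kind was called (0% of all genes for Aeg-S, 0% for Aeg-L). There, 13 members with Aeg-S and 2 with Aeg-L were at an unadjusted p under 0.05, and DESeq2 called 0 of each. The shares of all genes given here are those at an adjusted p under 0.05. Shares of all genes at an unadjusted p are not given, here or below, so the counts at that threshold cannot be set against a background. With Aeg-S, 2 were called without the filter and 1 without Aeg-S replicate 1. The members' medians were -0.02 and -0.005 in H1437-4 and 0.07 and -0.07 in H292-1 for aegs KO ALT and aegl KO ALT.

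Set against WT ALT, the knockout extracts had more members higher than lower. In H1437-4, 32 of 181 members (17.7%) were higher and 7 (3.87%) lower with aegs KO ALT, against 15.7% and 14.2% of all genes, and 39 (21.5%) were higher and 5 (2.76%) lower with aegl KO ALT, against 16.2% and 14.5%. In H292-1, 58 of 206 (28.2%) were higher and 22 (10.7%) lower with aegs KO ALT, against 13.2% and 13.4% of all genes, and 36 (17.5%) were higher and 17 (8.25%) lower with aegl KO ALT, against 9.85% and 9.13%. ZNF460 stood at 2.67 and 2.38 CPM with aegs KO ALT and 4.29 and 2.47 CPM with aegl KO ALT, against 15.4 and 15.6 CPM with WT ALT, in H292-1. These changes were -2.62 ± 0.30 (adjusted p = 0.000175) and -2.2 ± 0.29 (adjusted p = 0.000571), and in H1437-4 they were -1.63 ± 0.32 (adjusted p = 0.0011) and -1.82 ± 0.33 (adjusted p = 0.000481). ZNF627 stood at 13.0 and 9.39 CPM with aegs KO ALT and 9.73 and 10.5 CPM with aegl KO ALT, against 4.31 and 4.78 CPM with WT ALT, in H292-1 (changes of 1.30 and 1.15). No knockout library of either gene overlapped the WT ALT libraries there. The count of 80 with aegs KO ALT in H292-1 fell to 32 without either WT ALT library and to 42 without aegs KO ALT replicate 1, and the 53 with aegl KO ALT to 19 to 34 without any 1 of the 4 libraries. In H1437-4 the 39 fell to 24 and 23 without aegs KO ALT replicate 1 and 2, and the 44 to 22 and 28 without aegl KO ALT replicate 1 and 2. Mitochondrial counts in H292-1 made up 2.61% and 2.24% with aegs KO ALT and 0.554% and 2.26% with aegl KO ALT, against 1.02% and 0.986% with WT ALT, and KRT8 was lower with both knockout extracts there. Their part in the result was not tested. These comparisons share the WT ALT libraries with those of WT ALT against DPBS.

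Stimuli given with Tra, by the table name a MEK inhibitor, were compared with the stimulus alone. The same stimulus libraries served in the comparisons with DPBS. A move back is thus favoured for members named for their change there. Counts at an unadjusted p have no background here either. In H1437-1, 4 of 168 members (2.38%) were higher and 1 (0.595%) lower with ALT+Tra than with ALT, against 1.33% and 3.75% of all genes, and 26 had an unadjusted p under 0.05. ZNF627 stood at 4.57, 5.63 and 4.49 CPM with ALT+Tra against 2.82, 1.65 and 2.30 CPM with ALT (1.12, adjusted p = 0.0403), without overlap, but the call was lost without any 1 of the 6 libraries (adjusted p up to 0.19). ZNF823 stood at 3.99, 5.15 and 3.22 CPM with ALT+Tra against 1.56, 1.55 and 1.82 CPM with ALT (1.33, adjusted p = 0.0133), lost without ALT+Tra replicate 2 or any ALT library (adjusted p up to 0.0839). The count of 5 became 2 without ALT+Tra replicate 3, 0 without ALT+Tra replicate 2 or any ALT library, 11 with DESeq2 and 8 without the filter. Against DPBS, 0 members were called with ALT+Tra (0.283% of all genes; 23 at an unadjusted p under 0.05, 2 by DESeq2). In H1437-2, 0 of 183 members were called with Aeg-S/L+Tra against Aeg-S/L (1.27% of all genes; 12 at an unadjusted p under 0.05, 5 by DESeq2) and 0 against DPBS (0.495%; 22 at an unadjusted p under 0.05, 2 by DESeq2). ZNF460 stood there at 1.33 and 1.2 CPM with Aeg-S/L+Tra against 3.95 and 3.14 CPM with Aeg-S/L, and this change of -1.49 ± 0.39 was not called (adjusted p = 0.11).

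The calcium chelators were compared with Aeg-S/L alone. The same Aeg-S/L libraries served in the comparisons with DPBS. A move back is thus favoured for members named for their change there. In H292-2, 60 of 203 members (29.6%) were higher and 29 (14.3%) lower with BAPTA-AM than with Aeg-S/L alone, against 17.6% and 20.3% of all genes. With EGTA, 71 (35.0%) were higher and 23 (11.3%) lower, against 23.2% and 21.7%. The members' medians were 0.19 and 0.31, and leaving out single libraries gave 64 to 72 and 78 to 92 called members. Higher calls made up a larger and lower calls a smaller share of members than of all genes in both. The share of mitochondrial counts moved with these groups, at 0.19% and 0.217% with BAPTA-AM and 1.4% and 1.06% with EGTA, against 2.05% and 1.82% with Aeg-S/L alone. Epithelial markers moved as well, with KRT8 and EPCAM lower under both chelators. KRT7 was higher with BAPTA-AM but lower with EGTA, where KRT18 and KRT19 were also lower and CDH1 higher. Their part in the result was not tested. In H1437-3, 11 of 179 members (6.15%) were higher and 33 (18.4%) lower with BAPTA-AM, against 11.6% and 16.1% of all genes, and 13 (7.26%) were higher and 12 (6.7%) lower with EGTA, against 15.8% and 14.8%. There the EGTA count of 25 fell to 13 to 15 without any 1 of the 4 libraries, and both medians were -0.006. Mitochondrial counts made up 1.15% and 0.796% with BAPTA-AM and 2.29% and 2.34% with EGTA, against 3.26% and 3.45% with Aeg-S/L alone in H1437-3. Of the epithelial markers there, EPCAM was lower with BAPTA-AM. With EGTA, KRT7, KRT8 and KRT19 were lower and CDH1 higher. The part of these in the result was not tested.

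Stimuli given with a chelator were also set against DPBS. The count at an unadjusted p below has no background. In H292-2, 17 of 203 (8.37%) were higher and 54 (26.6%) lower with Aeg-S/L+BAPTA-AM, against 17.6% and 19% of all genes, and 28 (13.8%) were higher and 42 (20.7%) lower with Aeg-S/L+EGTA, against 20.1% and 14.4%. In H1437-3, 8 of 179 (4.47%) were higher and 27 (15.1%) lower with Aeg-S/L+BAPTA-AM, against 15% and 19.1% of all genes. With Aeg-S/L+EGTA, 2 (1.12%) were higher and 1 (0.559%) lower, against 4.19% and 0.988%, with 18 at an unadjusted p under 0.05, and the count of 3 became 1 without EGTA replicate 1 or DPBS replicate 1. Without single libraries the H292-2 counts fell to 46 without BAPTA-AM replicate 1, 47 without DPBS replicate 1 and, for EGTA, 42 without DPBS replicate 2, and the BAPTA-AM count of H1437-3 fell to 22 without DPBS replicate 2.

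ZNF460 and ZNF627 took different values under the 2 chelators. ZNF460 stood at 2.09 and 2.01 CPM with BAPTA-AM and 7.51 and 5.90 CPM with EGTA, against 11.5 and 12 CPM with Aeg-S/L alone, in H292-2. The change with BAPTA-AM was -2.52 ± 0.20 (adjusted p = 3.8e-09) and that with EGTA -0.81 ± 0.18 (adjusted p = 0.00106). The EGTA libraries remained above the DPBS libraries at 2.41 and 3.01 CPM (1.30 ± 0.20, adjusted p = 3.59e-05), while BAPTA-AM libraries lay below them without a call (-0.41, adjusted p = 0.151). In H1437-3 ZNF460 stood at 0.748 and 1.09 CPM with BAPTA-AM and 1.44 and 3.41 CPM with EGTA, against 4.30 and 3.60 CPM with Aeg-S/L alone, with changes of -2.10 ± 0.38 (adjusted p = 0.000544) and -0.70 (adjusted p = 0.157). ZNF627 stood at 7.66 and 8.40 CPM with BAPTA-AM and 11.7 and 13.1 CPM with EGTA, against 3.05 and 3.73 CPM with Aeg-S/L alone, in H292-2 (1.24 ± 0.16, adjusted p = 5.2e-06, and 1.87 ± 0.16, adjusted p = 2.38e-08). In H1437-3 it stood at 8.40 and 7.01 CPM with EGTA against 2.55 and 2.50 CPM with Aeg-S/L alone (1.61 ± 0.20, adjusted p = 1.51e-05), while 3.96 and 3.29 CPM with BAPTA-AM gave no call (0.52, adjusted p = 0.0698).

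ZNF331 and ZNF57 were lower with both chelators than with Aeg-S/L alone. Both were named for large increases over DPBS in these same Aeg-S/L libraries, which favours a decrease against them. ZNF331 stood at 13.3 and 13.5 CPM with BAPTA-AM and 22.5 and 17.2 CPM with EGTA, against 48.0 and 45.0 CPM with Aeg-S/L alone, in H292-2 (-1.79 ± 0.12, adjusted p = 1.9e-10, and -1.23 ± 0.11, adjusted p = 4.67e-08). ZNF57 stood at 3.67 and 4.72 CPM with BAPTA-AM and 4.53 and 3.54 CPM with EGTA, against 14.1 and 13.5 CPM with Aeg-S/L alone (-1.71, adjusted p = 2.94e-07, and -1.77, adjusted p = 2.68e-07). Their chelator libraries all lay below the libraries with Aeg-S/L alone. ZNF317 stood at 51.3 and 56.4 CPM with BAPTA-AM but 96 and 85.1 CPM with EGTA, against 90.1 and 90.6 CPM with Aeg-S/L alone, and in H1437-3 at 19.6 and 20.9 CPM with BAPTA-AM against 44.9 and 51.5 CPM with Aeg-S/L alone (-1.25, adjusted p = 1.85e-08). ZNF146 stood at 53.3 and 56.8 CPM with BAPTA-AM and 95.0 and 113 CPM with EGTA, against 65.9 and 66.9 CPM with Aeg-S/L alone, in H292-2. The EGTA change was 0.65 (adjusted p = 1.42e-06), and the BAPTA-AM change of -0.27 (adjusted p = 0.0101) was lost without BAPTA-AM replicate 1 or Aeg-S/L replicate 2 (adjusted p up to 0.11). In H1437-3 the BAPTA-AM change of ZNF146 was -0.39 (adjusted p = 0.000642), at 52.5 and 58.2 CPM with BAPTA-AM against 74.3 and 70.4 CPM with Aeg-S/L alone. ZNF805 stood at 2.44 and 2.91 CPM with BAPTA-AM against 9.30 and 9.4 CPM with Aeg-S/L alone in H292-2 (-1.80 ± 0.21, adjusted p = 9.47e-07), and at 0.775 and 0.683 CPM against 3.22 and 3.42 CPM in H1437-3 (-2.18 ± 0.34, adjusted p = 0.000117). ZNF681 stood at 2.17 and 2.11 CPM with BAPTA-AM and 1.51 and 1.01 CPM with EGTA, against 0.321 and 0.355 CPM with Aeg-S/L alone in H292-2 (2.65 and 1.89).

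Of 22 listed partners of KRAB zinc finger proteins, 21 matched a gene. With a stimulus against DPBS, 0 were called in H1437-1, 2 lower in H1437-2, 9 lower in H1437-3, 2 higher and 9 lower in H1437-4, 3 higher and 2 lower in H292-1, and 4 higher and 6 lower in H292-2. Lower calls made up 3.1% of all genes in H1437-2, 15.8% in H1437-3, 17.1% in H1437-4, 11.3% in H292-1 and 21.1% in H292-2. Higher calls made up 3.63%, 15.4%, 15.8%, 11.6% and 22.1% of all genes in the same order. TRIM28 was called in none, with changes between -0.47 and 0.47. SMARCAD1, a chromatin remodeller that binds TRIM28, was lower in 5 of the 6 and stood at 27.7 and 30.6 CPM with Aeg-S/L against 55.1 and 49.8 CPM with DPBS in H292-2 (-0.85 ± 0.09, adjusted p = 2.3e-07). It changed by -0.91 in H1437-3 and H292-1 and by -0.66 in H1437-4, and by -0.90 in H1437-2, where the call was lost without any 1 of 4 libraries (adjusted p up to 0.254). In H1437-1 it changed by -0.11 without a call.

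Mock-treated NCI-H292 cells held more transcript of most members than mock-treated NCI-H1437 cells. DPBS counts were summed per experiment and the 2 NCI-H292 sums set against the 4 NCI-H1437 sums. Of 209 tested members, 180 (86.1%) were higher in NCI-H292 and 3 (1.44%) lower, against 32.2% higher and 32.1% lower among all 19181 genes tested. The members' median log2 difference was 1.44, that of all genes 0.003, that of zinc finger genes on other chromosomes 0.29 and that of other coding genes of chromosome 19 0.33. The count minimum admits a gene through either line, and 22 members passed it in tables of NCI-H292 only and 4 in tables of NCI-H1437 only. Among the 170 members that passed in all 6 experiments, 148 (87.1%) were higher in NCI-H292 and 0 (0%) lower, with a median difference of 1.36, against 32.5% higher and 31.6% lower and a median of 0.02 among the 14474 genes that passed likewise. In 130 of the 170 the NCI-H292 libraries lay above all NCI-H1437 libraries, against 26.6% of those genes, and in 0 below them, against 22.3%. A total of 148 of all 209 tested members were called and at least 2-fold higher in NCI-H292, against 19.8% of all genes. In 159 of the tested members the lowest of 4 NCI-H292 libraries lay above the highest of 9 NCI-H1437 libraries, against 26.2% of all genes, and the reverse held for 2 members, ZNF726 and ZNF347, against 22.3% of all genes. The count stayed between 161 and 182 without single experiments, and with libraries as separate columns 180 members were higher and 2 lower. The lines come from separate experiments, so the line and the experiment cannot be told apart. Endothelial and fibroblast marker sums differed between the lines too (over all libraries, at least 52.7 CPM in NCI-H292 and at most 9.06 CPM in NCI-H1437 for endothelial markers), and their part in the result was not tested.

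Per length, the median member stood at 1.23 FPKM (counts scaled by exon length and library total) in NCI-H292, with quartiles of 0.526 and 2.88, and at 0.471 FPKM in NCI-H1437, with quartiles of 0.102 and 1.17. Over 1 FPKM were 125 members in NCI-H292 and 62 in NCI-H1437, and under 0.1 FPKM were 14 in NCI-H292 and 52 in NCI-H1437. These values cover all 211 members, with the 22 on the list through NCI-H292 only and the 4 through NCI-H1437 only. Part of this contrast therefore follows from the count minimum, and shares of all genes at these levels are not given here. ZNF146 was highest, at 22.0 ± 1.86 FPKM in NCI-H292 (SD, n = 4) and 22.4 ± 5.33 FPKM in NCI-H1437 (SD, n = 9), without a call (adjusted p = 0.869). ZNF787 stood at 18.1 ± 2.15 FPKM in NCI-H292 and 13.7 ± 3.03 FPKM in NCI-H1437, a difference of 0.43 ± 0.15 on the log2 scale (adjusted p = 0.0263) that was lost without any 1 of H1437-3, H1437-4, H292-1 or H292-2 (adjusted p up to 0.175). ZNF581 stood at 14.9 ± 0.458 FPKM in NCI-H292 and 4.68 ± 1.06 FPKM in NCI-H1437 (1.68 ± 0.13, adjusted p = 1.27e-06), and ZNF414 at 7.83 ± 1.40 FPKM in NCI-H292 and 8.43 ± 2.96 FPKM in NCI-H1437, without a call (adjusted p = 0.878).

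A few members were near absent from 1 line. Those near absent from NCI-H1437 that are named next, except ZNF506, are on the list through the tables of NCI-H292 only. The count minimum thus favours finding such members, but it does not set the size of their difference. ZNF331 had 2079 counts over the 4 NCI-H292 libraries and 0 over the 9 NCI-H1437 libraries, at least 1670-fold higher against a floor of 3 counts over the group. ZNF66 had 126 counts in NCI-H292 and 0 in NCI-H1437 (at least 101-fold higher), and ZNF793, at 0.0269 FPKM in NCI-H292, had 46 in NCI-H292 and 0 in NCI-H1437 (at least 37-fold higher). ZNF556 stood at 4.06 ± 0.341 FPKM in NCI-H292 and 0.0057 ± 0.0171 FPKM in NCI-H1437 (8.98 ± 0.54, adjusted p = 1.78e-07), and ZNF506 at 0.569 ± 0.137 FPKM in NCI-H292 and 0.0246 ± 0.0162 FPKM in NCI-H1437 (4.49 ± 0.30, adjusted p = 4.01e-07). The calls lower in NCI-H292, each on the list through the tables of NCI-H1437 only, were ZNF726 (-4.44 ± 0.73, adjusted p = 0.000352), ZNF347 (-3.05 ± 0.89, adjusted p = 0.0116) and ZNF43, with 0 counts in NCI-H292 and 40 in NCI-H1437 (at least 5.53-fold lower). A floor of 3 counts covers counting error only. Every positional group with at least 10 members had a median difference above 0, between 0.87 for ZNF628 to ZNF71 and 2.08 for ZNF264 to ZNF446, where 38 of 41 were higher in NCI-H292. ZNF460 stood at 0.845 ± 0.203 FPKM in NCI-H292 and 0.320 ± 0.141 FPKM in NCI-H1437 (1.41), and ZNF627 at 2.83 ± 0.167 FPKM in NCI-H292 and 1.44 ± 0.242 FPKM in NCI-H1437 (0.98). TRIM28, the corepressor of KRAB zinc finger proteins, was 1.09 ± 0.15 higher on the log2 scale in NCI-H292 (adjusted p = 8.83e-05). Of the 21 matched partners, 7 were higher in NCI-H292, TRIM28 among them, and 4 lower (CBX1, CBX3, MORC2 and SETDB1). Among all genes, 32.2% were higher and 32.1% lower.

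**Figure D5:**
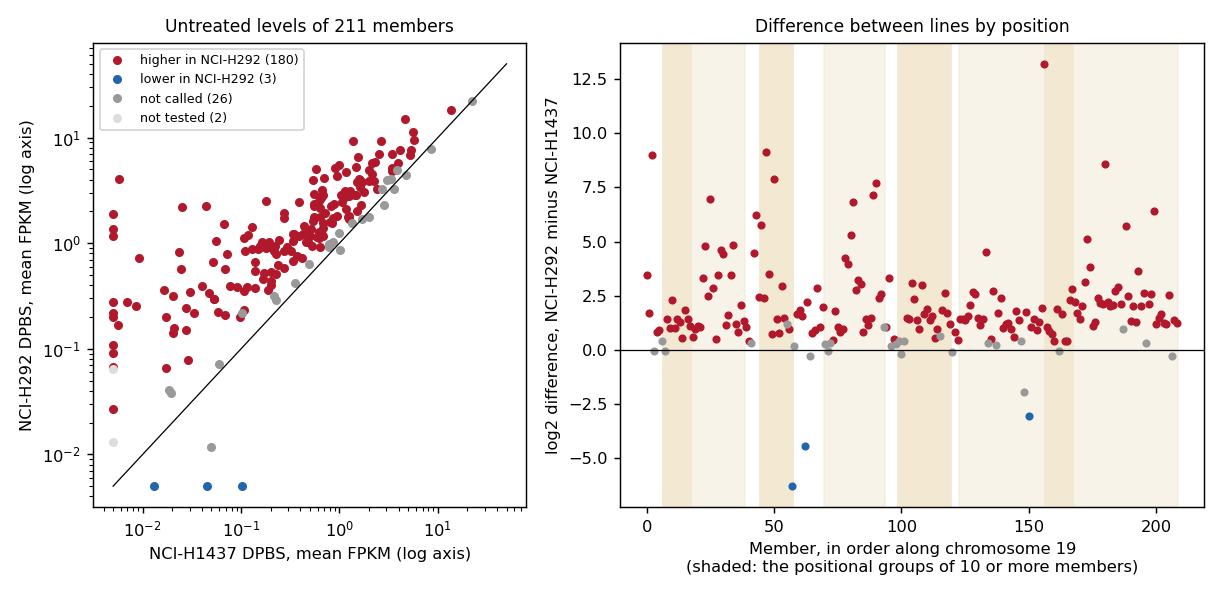
Left, mean level of each member in FPKM in mock-treated NCI-H292 (4 libraries) against NCI-H1437 (9 libraries), both axes logarithmic and levels under 0.005 FPKM drawn at 0.005, coloured by call. Right, log2 difference of NCI-H292 over NCI-H1437 for each tested member in chromosome order, with groups of at least 10 members shaded; 180 of 209 are called above 0 and 3 below.

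The same stimulus was given to both lines in separate experiments, so differences in response were tested directly. Under Aeg-S/L (H292-2 over H1437-3), the change differed for 29 of 207 members, with 5 (2.42%) more positive and 24 (11.6%) more negative in NCI-H292, against 7.48% and 6.82% of all genes, and a median difference of -0.31. Under WT ALT (H292-1 over H1437-4), it differed for 14 of 209 members, 8 (3.83%) more positive and 6 (2.87%) more negative, against 4.2% and 4.7% of all genes, with a median difference of 0.15. The changes of ZNF460 and ZNF627 were not called different, with differences of 0.76 ± 0.42 and -0.64 for WT ALT (adjusted p = 0.261 and 0.109) and 0.74 ± 0.43 and -0.35 for Aeg-S/L (adjusted p = 0.316 and 0.503). The count under WT ALT fell to 5 to 9 without any 1 of the 8 libraries. That under Aeg-S/L fell to 13 and 17 without Aeg-S/L replicate 1 and 2 of H292-2, 18 and 14 without DPBS replicate 1 and 2 of H292-2, and 19 without Aeg-S/L replicate 1 of H1437-3.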

How the data were processed

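The authors deposited 6 human tables of gene counts, and each of their 51 count columns was used (0 left out). The 48 mouse libraries were not used here. RNA came from a TIANGEN RNAprep kit and libraries from the NEBNext Ultra RNA kit, per the labels, a preparation without strand marking. Alignment to hg19 used HISAT2 2.2.1 and SAMtools, and the reads were, per the submitters' processing notes, counted per gene with featureCounts 2.0.2 and tested with DESeq2 1.36.0 in R 4.2.2. The counting options for strand and for reads with several alignments are not stated in what was used here.

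Deposited counts entered the fits unchanged, with symbols from a reference table (51996 of 57820 IDs matched). For H292-2, BAPTA-AM columns carry only the chelator's name and were taken as the samples whose labels give it with Aeg-S/L. The name of that table gives ALT where its labels give Aeg-S/L. Between replicate columns the chi-square per degree of freedom was at least 3.926 over 30 pairs, which is no sign of a library deposited again.

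Each experiment was fitted with edgeR 4.0.16 in R 4.3.3 (filterByExpr, TMM scaling, 1 coefficient per group, quasi-likelihood F test, Benjamini-Hochberg over all genes, calls at adjusted p under 0.05). The standard error is the size of a log2 change over the root of F. Line differences were tested in joint fits. CPM of single genes use TMM-scaled library sizes, sums over members use library totals, and FPKM use library totals and the exon length of the deposited tables. Alternatives were DESeq2 1.42.0, no filter, the list's own minimum as filter, DESeq2 size factors, the replicate number as a block, each library left out and, chosen after seeing the data, library totals without TMM factors for stimuli against DPBS. Where that left 1 library in a group, it was assumed to vary like the other groups. The fit was tested on simulated data with 200 changed genes. Of the 211 members, 116 share an exon base with another gene on the deposited hg19 exon coordinates. In GENCODE v29 transcripts, 32 share over 10% of their 50-base words with other genes.

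Named are members called in 1 direction in at least 5 of 6 stimulus comparisons, the 3 largest increases and decreases called per stimulus comparison and the 2 largest per inhibitor comparison (at least 0.5 CPM in the higher group, no overlap between replicates), the 3 highest per line, the 3 most different between lines each way, and listed partners called in 1 direction in at least 5 of 6. Other genes, such as those of the group ZNF737 to ZNF43, were singled out after their values were seen. The members and lists were chosen with earlier results of these data known.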

Additional observations from a re-analysis of the deposited data

Results flagged for a closer look

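For 8 named members the response differed between the lines by edgeR's quasi-likelihood test of the difference itself, with both effects taken against their own DPBS. The lines were treated in separate experiments, so the line and the experiment cannot be told apart, and each group held 2 libraries. Differences are log2 changes in NCI-H292 minus those in NCI-H1437.

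Under Aeg-S/L, ZNF57 differed by 1.93 ± 0.34 (SE, adjusted p = 0.000278), with a change of 1.98 in NCI-H292 and 0.07 in NCI-H1437. ZNF787 differed by 0.57 ± 0.10 (adjusted p = 0.000354), with 0.82 and 0.26. ZNF699, a KRAB zinc finger gene whose fly counterpart hangover is known from alcohol tolerance, differed by -2.87 ± 0.58 (adjusted p = 0.00123), with -1.48 and 1.40. ZNF681 differed by -2.53 ± 0.61 (adjusted p = 0.00601), with -3.35 and -0.80. These 4 kept their calls under every alternative tried. ZNF296 differed by 0.90 ± 0.23 (adjusted p = 0.01), ZNF823 by -1.15 ± 0.34 (adjusted p = 0.0243) and ZNF137P by -3.0 ± 0.98 (adjusted p = 0.0406). These 3 were lost without single libraries, with adjusted p up to 0.0627, 0.0984 and 0.162.

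Under WT ALT, ZNF569 differed by 2.32 ± 0.61 (adjusted p = 0.0251), with changes of -0.25 in NCI-H292 and -2.61 in NCI-H1437. ZNF699 differed by -2.05 ± 0.54 (adjusted p = 0.0241), with -0.61 and 1.40, neither of which was called against its own DPBS (adjusted p = 0.138 and 0.0658). ZNF296 differed by 1.69 ± 0.48 (adjusted p = 0.0384), with 1.67 and -0.05. ZNF57 differed by 1.26 ± 0.37 (adjusted p = 0.0456), with 1.2 and -0.10. All 4 were lost without single libraries, with adjusted p up to 0.0937, 0.104, 0.134 and 0.161.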

How the results depend on the processing

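Of 155 recomputed counts of called members without leaving out a library, 18 moved by over 1.5 times, and these are all counts of at most 26. With DESeq2 and without the low-count filter, the counts were 9 and 7 for H1437-1 ALT against DPBS, 2 and 4 for ALT+Tra against DPBS, 11 and 8 for ALT+Tra against ALT, 23 and 26 for H1437-2 Aeg-S/L against DPBS, 2 and 2 for Aeg-S/L+Tra against DPBS, and 5 and 5 for Aeg-S/L+Tra against Aeg-S/L. Without the filter, they were 2 for H1437-2 Aeg-S, 5 for H1437-3 Aeg-S/L+EGTA, 1 for H1437-4 aegl KO ALT and 5 for H292-1 aegl KO ALT, each against DPBS. With DESeq2 the line difference under WT ALT was 23. The cause was not tested. Shares of all genes under these settings are not given here, so these counts cannot be set against a background.

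Replicate numbers were not taken as pairs: correlations of same-numbered libraries ran from -0.271 to 0.588 over 43 distinct pairs, with 8 over 0.1. The highest were those of ALT+Tra with DPBS in H1437-1, where all 3 pairs had 0.283 to 0.588, and of aegs KO ALT with DPBS in H292-1, at 0.485. In both of these comparisons 0 members were called with and without the block. With the replicate number as a block, 6 members were called for H1437-3 Aeg-S/L+EGTA against DPBS, and the other counts stayed within 1.5 times, such as 120 for H292-2 Aeg-S/L and 64 for H292-1 WT ALT.

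Leaving out 1 library at a time gave 0 to 8 (H1437-1 ALT), 0 to 5 (ALT+Tra against ALT), 0 to 5 (H1437-2 Aeg-S/L), 0 to 1 (Aeg-S), 20 to 26 (H1437-3 Aeg-S/L), 22 to 35 and 1 to 3 (BAPTA-AM and EGTA against DPBS), 30 to 36 and 13 to 15 (the same against Aeg-S/L), 26 to 42 (H1437-4 WT ALT), 23 to 36 and 22 to 35 (aegs and aegl KO ALT against WT ALT), 29 to 45 (H292-1 WT ALT), 32 to 84 and 19 to 34 (aegs and aegl KO ALT against WT ALT), 91 to 98 (H292-2 Aeg-S/L), 46 to 49 and 42 to 62 (BAPTA-AM and EGTA against DPBS), 64 to 72 and 78 to 92 (the same against Aeg-S/L), 5 to 9 and 13 to 24 (line differences under WT ALT and Aeg-S/L) and 161 to 182 (mock-treated lines). Of 334 values of named members, 183 kept their side of the threshold in every alternative and 0 reversed, with 428 of 3129 recomputed values losing the call. DESeq2 size factors moved the median of all genes by -0.022 to 0.035. The members' medians moved by more than the spread between libraries in 77 of 258 recomputed values, 54 of them with a library left out. Against DPBS they ran from -0.51 to -0.43 in H292-2, -0.34 to -0.18 in H292-1, -0.38 to -0.31 in H1437-4, -0.12 to -0.07 in H1437-3, -0.4 to -0.29 in H1437-2 and -0.13 to -0.03 in H1437-1. With library totals in place of TMM factors, an alternative chosen after seeing the data, 15 of 183 members were called for H1437-2 Aeg-S/L. Of these, 2 were higher and 13 lower, against 2.95% higher and 5.56% lower among all genes. Members stood at a median of 2.46 to 6.25 CPM with DPBS, with a median standard error of 0.2 to 0.38 of the log2 change, and the smallest change called ran from 0.26 in H1437-3 to 1.09 in H1437-1.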

Other observations

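Across members, the log2 change with WT ALT in H292-1 and with Aeg-S/L in H292-2 had a Pearson r of 0.76 over 202 members, beside 0.73 over all genes tested in both. These 2 experiments share the line but no library. Between H1437-3 and H292-2 it was 0.60, beside 0.56 over all genes. The lowest value was 0.21 between H1437-1 and H1437-2 over 168 members, beside 0.45 over all genes. By rank (Spearman), these 2 experiments had 0.16 over members and 0.19 over all genes. The change ran weakly with the level of a member, with a Spearman rho of 0.31 over 206 members in H292-1, 0.30 over 203 in H292-2, and 0.10 to 0.24 in the 4 experiments with NCI-H1437, beside 0.08, 0.15 and -0.09 to -0.01 over all genes. These values describe genes, which are not independent replicates.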
